A study of Mus musculus with 4 samples.

Results

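The core circadian clock of the liver was examined in 10 genes: Arntl, Npas2, Clock, Nr1d1, Nr1d2, Per3, Per1, Per2, Cry2 and Cry1. They were chosen by name, as every probe set whose only gene symbol in the platform annotation, current or older, was one of these. All 10 were present, among 18193 genes with such a probe set, and were read by 23 of the 45101 probe sets on the array. Liver RNA came from 4 male mice aged 9 months, raised on chow without any intervention, each on an Affymetrix array of its own. The AB6F1 group (n = 2) was born to AJ dams mated with B6 sires, and the B6AF1 group (n = 2) to B6 dams mated with AJ sires, so that both are first-generation hybrids of the same inbred strains and differ in the direction of the cross. All 10 genes lie on autosomes, of which both crosses inherit one copy from each strain. Whole liver slices were used, and fewer cells of a type and less RNA per cell cannot be told apart in them. The labels used here give no hour of collection, so the hour and the cross cannot be told apart.

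The clock is a loop of transcription factors. ARNTL, also called BMAL1, pairs with CLOCK or its relative NPAS2 and activates genes that carry an E-box, among them the Per, Cry and Nr1d genes. PER and CRY proteins gather in a complex that shuts this activation off, and NR1D1 and NR1D2, the REV-ERB nuclear receptors, repress Arntl through sites that they share with the activating ROR receptors. In mouse liver, transcripts of Arntl, Npas2 and Clock are known to crest around the end of the night, those of Nr1d1, Nr1d2 and Per3 through the day, those of Per1, Per2 and Cry2 around dusk and early night, and that of Cry1 late at night. The genes are described in that order.

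No core clock gene passed the test between the crosses, but 6 of the 9 tested genes had arrays that did not overlap. Arntl, Clock and Cry1 were lower on both AB6F1 arrays than on both B6AF1 arrays, and Nr1d2, Per3 and Per2 were higher. Nr1d1, Cry2 and Npas2 overlapped between the crosses, and Per1 was too dim to be tested. The differences were tested with limma on log2 signal over 11748 genes whose mean signal was at least 60.9, the median of all probe sets. At an adjusted p under 0.05 (Benjamini-Hochberg over all genes tested), limma called 0 of the 9 members, against 25 genes or 0.213% over all genes (0.136% higher and 0.0766% lower). At an unadjusted p under 0.05 there were 3 members, Nr1d2 higher and Arntl and Clock lower, beside 9.72% of all genes (5.84% higher and 3.88% lower). Arrays did not overlap for 66.7% of the tested members, against 41.2% of all genes, which were split into 22.5% higher and 18.7% lower. With 2 arrays per cross, an exact permutation test of any single gene cannot give a two-sided p below 0.333.

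**Figure D1:**
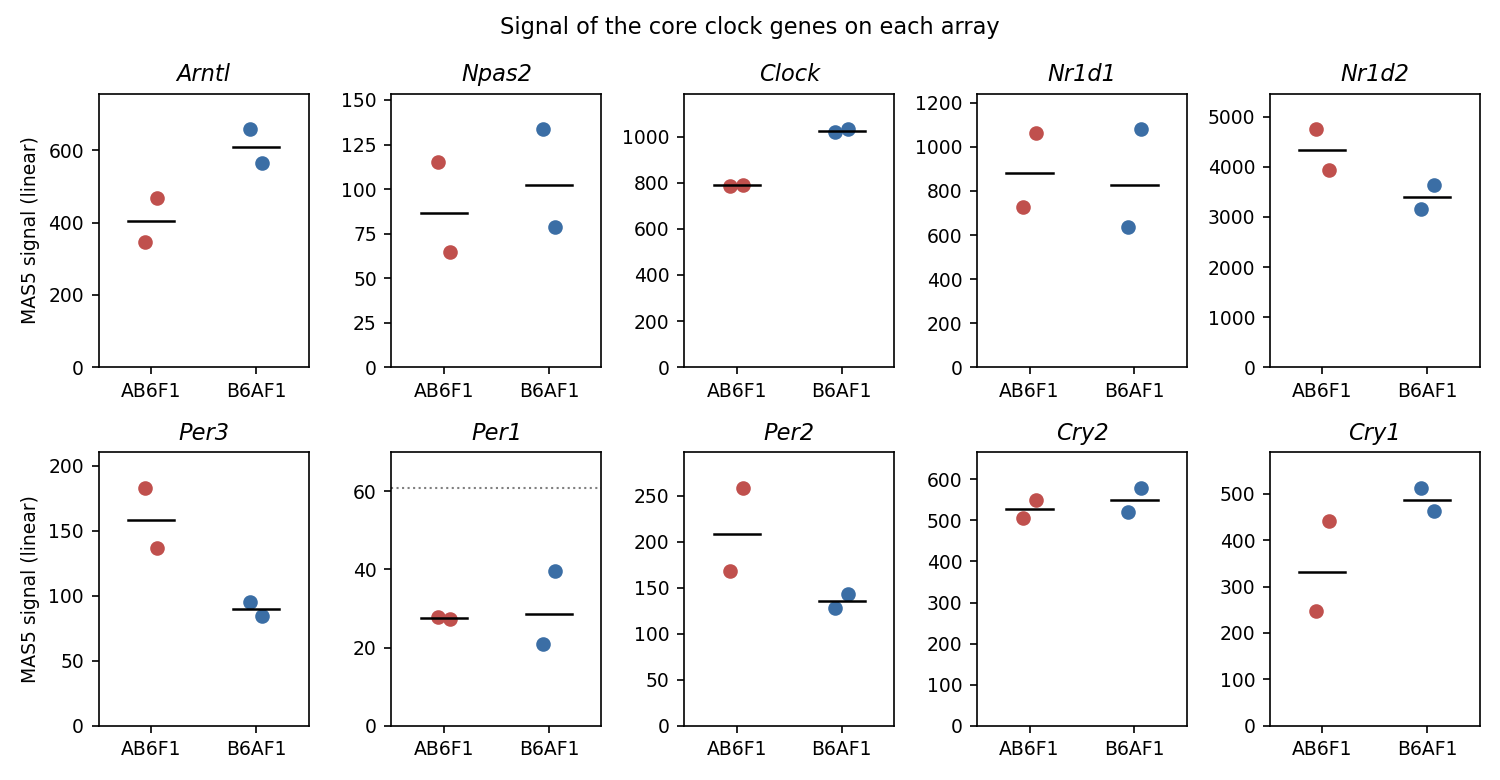
Deposited MAS5 signal (linear axis from 0, a scale of its own in each panel) of the probe set that stands for each gene, for AB6F1 and B6AF1 males. Points are arrays, bars are geometric means of 2 arrays, and the dotted line for Per1 is the filter signal of 60.9. The points of the crosses lie apart for Arntl, Clock, Nr1d2, Per3, Per2 and Cry1.

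The promoter windows of 4 of the 6 genes whose arrays did not overlap are shown because the searched words that they hold differ. They are RefSeq windows of assembly GRCm38.p6, from 250 bases before to 50 after a transcription start, and 9 of the 10 genes matched an entry, with 13 windows in all. Per2 had no entry, so its promoter was not searched. Capitals mark words searched on both strands: the E-box CACGTG, its variant CACGTT, the nuclear receptor word AGGTCA, the word TNGGTCA in which N is any base and which overlaps AGGTCA when N is A, the D-box words TTATGTA and TTACGTA, and the CRE word TGACGTC. The Arntl window, the second of 2 that overlap, lies at chr7:113207261-113207560 (+ strand), that of Nr1d2 at chr14:18239057-18239356 (- strand), that of Per3 at chr4:151044616-151044915 (- strand) and that of Cry1 at chr10:85185005-85185304 (- strand).
Arntl: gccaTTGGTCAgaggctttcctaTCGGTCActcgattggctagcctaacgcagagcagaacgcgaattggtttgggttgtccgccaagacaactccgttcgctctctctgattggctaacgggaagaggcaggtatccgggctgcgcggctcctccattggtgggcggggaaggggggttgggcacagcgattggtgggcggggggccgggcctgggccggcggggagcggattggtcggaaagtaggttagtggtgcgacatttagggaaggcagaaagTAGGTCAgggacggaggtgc
Nr1d2: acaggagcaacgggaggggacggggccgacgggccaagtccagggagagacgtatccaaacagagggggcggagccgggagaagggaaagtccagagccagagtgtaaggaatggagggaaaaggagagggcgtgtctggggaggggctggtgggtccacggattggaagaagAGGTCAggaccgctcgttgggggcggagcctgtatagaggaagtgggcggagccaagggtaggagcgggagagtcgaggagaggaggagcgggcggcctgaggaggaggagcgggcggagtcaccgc
Per3: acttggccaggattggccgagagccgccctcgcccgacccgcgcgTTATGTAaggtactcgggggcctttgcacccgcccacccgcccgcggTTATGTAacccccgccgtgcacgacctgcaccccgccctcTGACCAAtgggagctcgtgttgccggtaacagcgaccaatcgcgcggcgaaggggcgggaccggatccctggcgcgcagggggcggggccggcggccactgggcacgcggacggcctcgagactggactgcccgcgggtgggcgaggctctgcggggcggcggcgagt
Cry1: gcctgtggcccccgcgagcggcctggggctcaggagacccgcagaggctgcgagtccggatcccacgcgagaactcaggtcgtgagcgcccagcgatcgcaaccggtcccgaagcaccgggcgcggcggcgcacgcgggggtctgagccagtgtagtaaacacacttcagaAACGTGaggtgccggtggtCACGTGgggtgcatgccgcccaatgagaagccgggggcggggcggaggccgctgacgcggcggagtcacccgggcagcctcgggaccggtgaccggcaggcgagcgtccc

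The Arntl window shown holds TNGGTCA in 3 places, with first bases at -246, -227 and 31 from the start, the last of which contains AGGTCA at 32; the other Arntl window, counted from its own start, holds the first and second of them, at -200 and -181. TNGGTCA is found at least once in 11.0% of all 32851 windows. The Nr1d2 window holds AGGTCA at -77, a word found in 16.3% of all windows. Per3 carries TTATGTA at -205 and at -158, a word of 2.63% of windows, and TNGGTCA on the reverse strand at -118. Cry1 carries the E-box at -60, as do 7.15% of windows, and the variant on the reverse strand at -79, as do 4.68%. Elsewhere among the members, the E-box was found at -166 in 1 of 2 windows of Per1, and the variant at -28 in Nr1d1 and at -166 in Cry2. AGGTCA also lay in 1 of the 3 windows of Clock and 1 window of Per1, TNGGTCA in Cry2, and TGACGTC in the other window of Per1. TTACGTA was in 0 member windows and in 0.475% of all windows. A match says only that these letters stand in the window.

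Arntl and Clock, the activating pair, were both lower in AB6F1. Arntl had signals of 346 and 469 in AB6F1 males, against 658 and 566 in B6AF1 males. Both AB6F1 arrays lay below both B6AF1 arrays, at 0.66 of the B6AF1 level. The log2 difference of -0.60 ± 0.21 (SE; 95% interval -1.10 to -0.10) had a limma adjusted p of 0.439. With AB6F1 replicate 1 left out it was -0.38, and leaving out AB6F1 replicate 2 gave -0.82. The difference was larger than the gap between the mice of either cross, which was 0.44 in AB6F1 and 0.22 in B6AF1 on the log2 scale. Clock had signals of 788 and 791 in AB6F1, against 1018 and 1032 in B6AF1. The mice of a cross were almost alike in Clock, with log2 gaps of 0.006 in AB6F1 and 0.019 in B6AF1, so that the difference of -0.38 ± 0.14 (SE) was many times either gap. Limma borrows the spread of other genes and does not rest on gaps this small. The limma p of Clock was 0.0306 unadjusted and 0.463 after adjustment over all genes tested.

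Npas2, the relative of Clock that can replace it as the partner of ARNTL, did not separate the crosses. Its signals were 115 and 64.5 in AB6F1, against 134 and 78.6 in B6AF1. The mice of a cross differed by 0.84 in AB6F1 and 0.77 in B6AF1 on the log2 scale, more than the difference of -0.25 ± 0.51 (SE; 95% interval -1.46 to 0.96; limma adjusted p = 0.902). The interval gives the range of differences that these values allow, and no limit of detection was computed.

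The REV-ERB receptor genes differed in how far the mice of a cross resembled each other. Nr1d1 had signals of 729 and 1062 in AB6F1, against 636 and 1081 in B6AF1. Each cross held a dimmer and a brighter mouse, the log2 gaps of 0.54 in AB6F1 and 0.77 in B6AF1 were far above the difference of 0.09 ± 0.29 (SE; limma adjusted p = 0.947), and the AB6F1 signals lay within the range of the B6AF1 signals. Nr1d2 had signals of 4752 and 3939.8 in AB6F1, against 3154 and 3646 in B6AF1. Both AB6F1 arrays were brighter, with a fold of 1.28 and a log2 difference of 0.35 ± 0.14 (SE), at a limma adjusted p of 0.501, and the gaps within the crosses were smaller, at 0.27 in AB6F1 and 0.21 in B6AF1. Without AB6F1 replicate 1 the difference was 0.22.

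Among the period genes, whose proteins form the repressing complex, Per3 and Per2 had the largest positive differences of the tested members. Per3 had signals of 183 and 136 in AB6F1, against 95.3 and 84.4 in B6AF1. The dimmer AB6F1 array was still above both B6AF1 arrays, and the fold was 1.76 with a log2 difference of 0.82 ± 0.37 (SE; 95% interval -0.06 to 1.69; limma adjusted p = 0.531). Per2 had signals of 169 and 259 in AB6F1, against 128 and 143 in B6AF1. Here the mice of AB6F1 were 0.62 apart on the log2 scale, about as far as the crosses were from each other, at 0.63 ± 0.33 (SE; limma adjusted p = 0.593), and without AB6F1 replicate 2 the difference was 0.32. Per1 was read by 1 probe set, with signals of 27.9 and 27.2 in AB6F1, against 20.8 and 39.6 in B6AF1. All 4 lay below the filter signal of 60.9, and the log2 difference of -0.06 has no test in the filtered fit; without the filter its limma adjusted p was 0.993.

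The cryptochromes are the other arm of the repressing complex. Cry2 had signals of 505 and 549.7 in AB6F1, against 520.4 and 579.7 in B6AF1, and the arrays of the crosses alternated in order. Its log2 difference was -0.06 ± 0.17 (SE; 95% interval -0.46 to 0.34; limma adjusted p = 0.931). Cry1 had signals of 248 and 442 in AB6F1, against 513 and 463 in B6AF1. Both AB6F1 arrays were lower, but they lay 0.83 apart on the log2 scale and the brighter of them came close to the B6AF1 arrays, so that the difference of -0.56 ± 0.29 (SE; limma adjusted p = 0.592) was smaller than the gap within AB6F1. The Cry1 value rests on AB6F1 replicate 1: without that array the log2 difference was -0.14, and without AB6F1 replicate 2 it was -0.98.

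**Figure D2:**
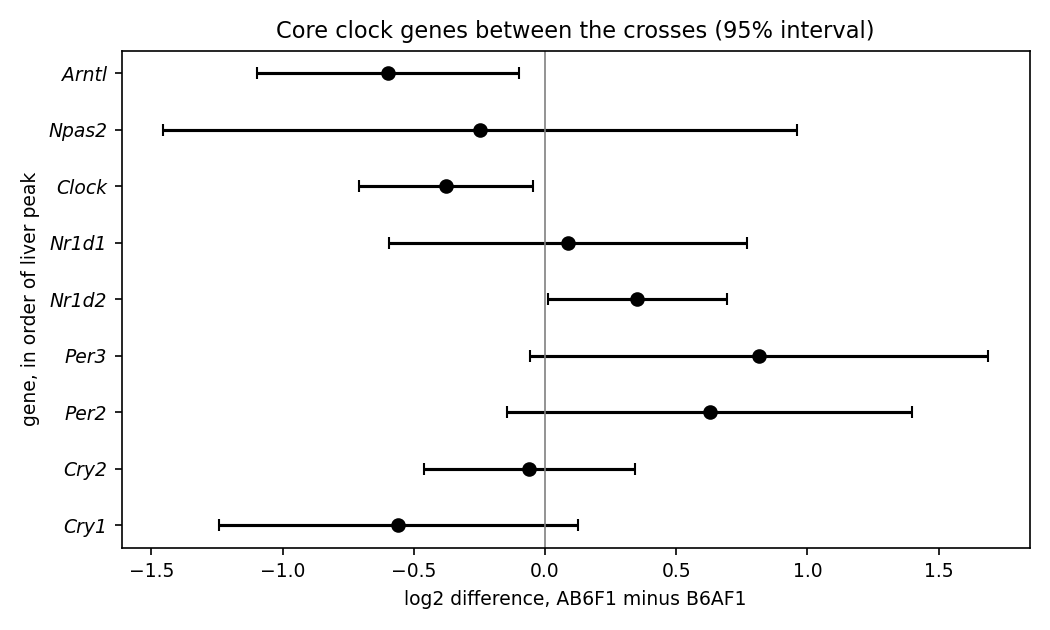
Log2 difference, AB6F1 minus B6AF1, of the 9 tested core clock genes, from top to bottom in order of liver peak. Points are limma estimates from 2 arrays per cross and bars are 95% intervals. The bars of Arntl, Clock and Nr1d2 do not reach 0, and the other 6 cross it.

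Set against all genes tested, the members were spread to both sides. Of the 9, 4 were positive and 5 negative, with a median log2 difference of -0.06, while 6284 of the 11748 genes were positive, with a median of 0.02. The difference between the crosses exceeded the gap within each of them for 5 members, Arntl, Clock, Nr1d2, Per3 and Per2, or 55.6%, against 28.1% of all genes. The median size of the difference was 0.38 for the members and 0.20 for all genes, and the median gap within AB6F1 was 0.44 for the members and 0.24 for all genes. Within B6AF1 the corresponding medians were 0.18 and 0.20.

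Other probe sets of the same genes gave mixed readings, mostly where they were dim. In all, 6 genes had more than 1 probe set and 13 of the 23 probe sets were above the filter signal. Of the 13 probe sets that did not stand for their gene, 7 had the sign of the one that did and 6 had the opposite sign. Among the 4 of them above the filter signal, 3 had the same sign. The second brightest probe set of Clock, at 405 and 469 in AB6F1 against 419.7 and 504.2 in B6AF1, overlapped, at a log2 difference of -0.08. The next in brightness, at 342 and 399 in AB6F1 against 472 and 466 in B6AF1, did not overlap, at -0.34. The second probe set of Nr1d2 was much dimmer, at 161 and 99.2 in AB6F1 against 143 and 129 in B6AF1, and overlapped at -0.11. The second of Per3, just above the filter signal, also overlapped. It was at 59.8 and 114 in AB6F1 against 30.2 and 71.8 in B6AF1, with a log2 difference of 0.83. A further Per3 probe set below the filter did not overlap, at 69.9 and 84.9 in AB6F1 against 25.4 and 59.3 in B6AF1. The other 3 of Per3, all below the filter, overlapped, at log2 differences of -0.34, -0.63 and 0.42. Per2 had 2 further probe sets, both below the filter and overlapping, with opposite signs. One was at 72.1 and 72.4 in AB6F1 against 73.1 and 15.1 in B6AF1, a log2 difference of 1.12, and the other at 47.1 and 3.9 in AB6F1 against 41.5 and 43.5 in B6AF1, a difference of -1.65. The single dim probe sets left of Clock and Npas2 overlapped too, at 1.19 and -1.25. The second probe set of Arntl scattered widely, at 18.6 and 147 in AB6F1 against 84.6 and 11.6 in B6AF1, and gave no steady reading within either cross. When the log2 signals of all probe sets of a gene were averaged, the difference of Arntl was 0.07 and that of Clock was 0.10, so that their direction depends on leaving out the dim probe sets.

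**Figure D3:**
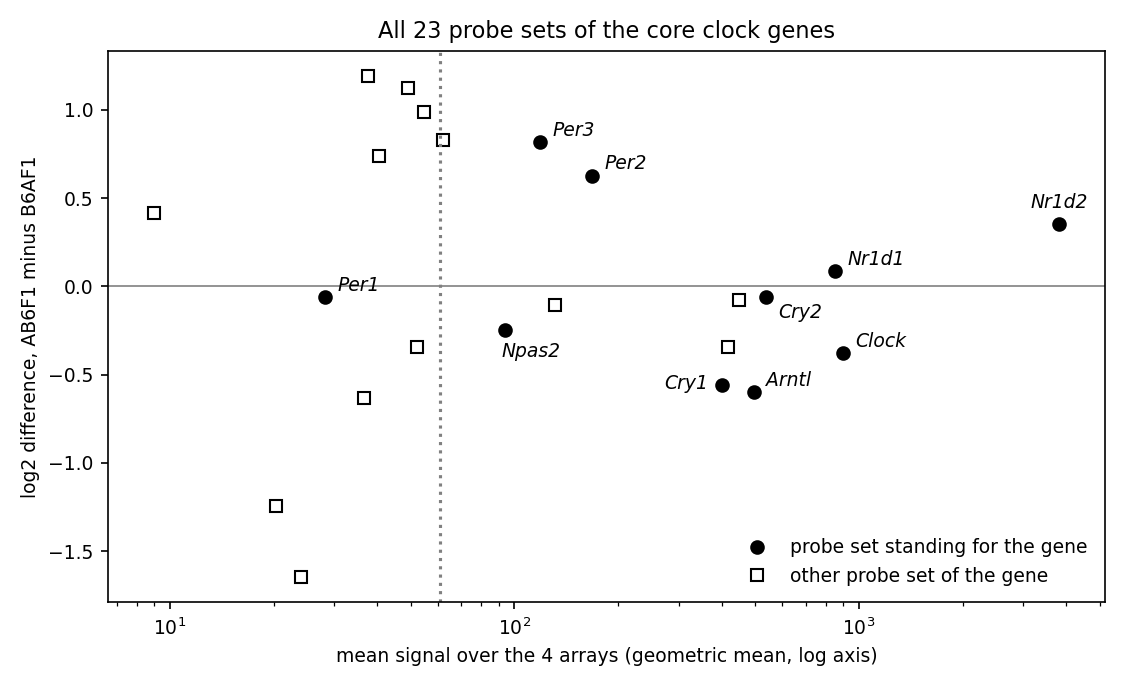
Log2 difference, AB6F1 minus B6AF1, against the geometric mean signal over the 4 arrays (log axis) for all 23 probe sets of the 10 genes. Filled circles stand for the gene, open squares are its other probe sets, and the dotted line is the filter signal of 60.9. Probe sets left of the line scatter from -1.65 to 1.19, more widely than those right of it.

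Ratios taken within an array do not depend on how the arrays were scaled to each other. Because Arntl itself was lower on both AB6F1 arrays, most genes lay higher relative to it: 73.8% of the 11747 other tested genes had a higher ratio to Arntl on both AB6F1 arrays without overlap, and 0.707% a lower one. Among the 8 other tested members 5 did so, or 62.5%, which is no larger a share than over all genes. The median shift of the log2 ratio was 0.61 for the members and 0.62 for all genes. Nr1d1 and Cry2, which overlapped in their own signals, were among the 5 only through the Arntl values. Per3 and Per2 shifted furthest. The log2 ratio of Per3 to Arntl was -0.92 and -1.78 in AB6F1, against -2.79 and -2.75 in B6AF1, a shift of 1.42. That of Per2 to Arntl was -1.04 and -0.86 in AB6F1, against -2.36 and -1.98 in B6AF1, a shift of 1.23. Cry1 kept close to Arntl, with a shift of 0.04, and its ratios of -0.48 and -0.09 in AB6F1 enclosed those of -0.36 and -0.29 in B6AF1. All of these ratios share the Arntl values, so they are not separate observations. Between paralogs the ratios of Per2 to Per3, Cry1 to Cry2, Nr1d2 to Nr1d1 and Npas2 to Clock all overlapped between the crosses.

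Beyond the 10 genes, a list of accessory loop members and modifiers held 22 genes, of which 19 had a probe set and 16 were tested. None of the 16 passed limma over all genes, 2 were higher at an unadjusted p under 0.05 and 0 were lower. Of all genes tested, 0.213% passed limma, and 5.84% were higher and 3.88% lower at the unadjusted p. The list had 9 positive and 7 negative differences and a median of 0.10 on the log2 scale. The largest tested difference was that of Bhlhe40, which encodes DEC1, an E-box repressor that is itself under clock control. It had signals of 3847 and 2866 in AB6F1, against 1559 and 1131 in B6AF1, so the crosses lay well apart. The log2 difference of 1.32 ± 0.21 (SE) had a limma adjusted p of 0.0948. Usp2, a deubiquitinase that acts on clock proteins, had signals of 245 and 176 in AB6F1, against 85.0 and 88.3 in B6AF1. That was a log2 difference of 1.26 ± 0.35 (SE), with a limma adjusted p of 0.338.

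The other tested accessory genes lay nearer to 0. Rora, an activator of Arntl that competes with the REV-ERB receptors, was at -0.06 ± 0.15 (log2, SE), with signals of 2265 and 2570.1 in AB6F1 against 2759 and 2289 in B6AF1. Prkaa2, a catalytic subunit of AMP-activated kinase, was at 0.27 ± 0.14, Hdac3, the deacetylase recruited by REV-ERB receptors, at 0.18 ± 0.14, the deacetylase Sirt1 at 0.26 ± 0.21 and Wdr5, a scaffold of histone methyltransferases, at -0.28 ± 0.15. Limma adjusted p of these 4 ran from 0.592 to 0.727. Ciart, a repressor of the CLOCK and ARNTL pair, was below the filter, with signals of 14.3 and 105 in AB6F1, against 15.2 and 13.8 in B6AF1, and so was Bhlhe41, with 22.6 and 91.6 in AB6F1 against 57.1 and 17.9 in B6AF1. Both were high on AB6F1 replicate 2 and no reading is drawn from them.

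Among 14 clock output genes, 13 were tested and limma called 0, while 3 were higher and 3 lower at an unadjusted p under 0.05. The shares over all genes tested were 5.84% higher and 3.88% lower at that p, and 0.213% called. The list had 8 positive and 5 negative differences and a median of 0.20 on the log2 scale. Dbp, a PAR bZIP activator that is driven by E-boxes, had signals of 4103 and 2317 in AB6F1, against 464 and 1046 in B6AF1. All AB6F1 values were above those of B6AF1, although the mice of each cross were also unlike, and the log2 difference of 2.15 ± 0.40 (SE) had a limma adjusted p of 0.157. Its relatives Tef and Hlf were close to level, at 0.20 ± 0.13 and 0.11 ± 0.14. Nfil3, the repressor that competes with the PAR bZIP factors for D-boxes, lay on the other side. Its signals were 486 and 972 in AB6F1, against 1922 and 1829 in B6AF1. Its difference was -1.45 ± 0.30 (log2, SE), with a limma adjusted p of 0.209.

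Wee1, a kinase that holds back mitosis and whose promoter is known to carry E-boxes, had signals of 445 and 534 in AB6F1, against 203 and 182 in B6AF1. The crosses did not overlap, and the log2 difference was 1.34 ± 0.22 (SE; limma adjusted p = 0.115). Nampt, which makes the NAD+ precursor nicotinamide mononucleotide, was at 0.71 ± 0.17 (limma adjusted p = 0.272), and Upp2, a uridine phosphorylase, at -0.35 ± 0.12 (limma adjusted p = 0.421). Elovl3, a fatty acid elongase whose transcript in mouse liver is rhythmic and also depends on sex, had signals of 1679 and 3826 in AB6F1, against 17044 and 13672 in B6AF1. Its log2 difference of -2.59 ± 0.35 (SE; limma adjusted p = 0.0610) was the largest in size of both lists. Bhlhe40 passed at a limma adjusted p of 0.0397 and Elovl3 at 0.00667 when each array was centred on its median. In that setting limma called 50 of all genes, in place of 25. Without the intensity trend neither gene passed, at limma adjusted p of 0.410 for Bhlhe40 and 0.379 for Elovl3, and 0 of all genes were called. With an array left out, the log2 difference of Bhlhe40 ran from 1.091 to 1.554, and that of Elovl3 from -3.184 to -1.997.

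**Figure D4:**
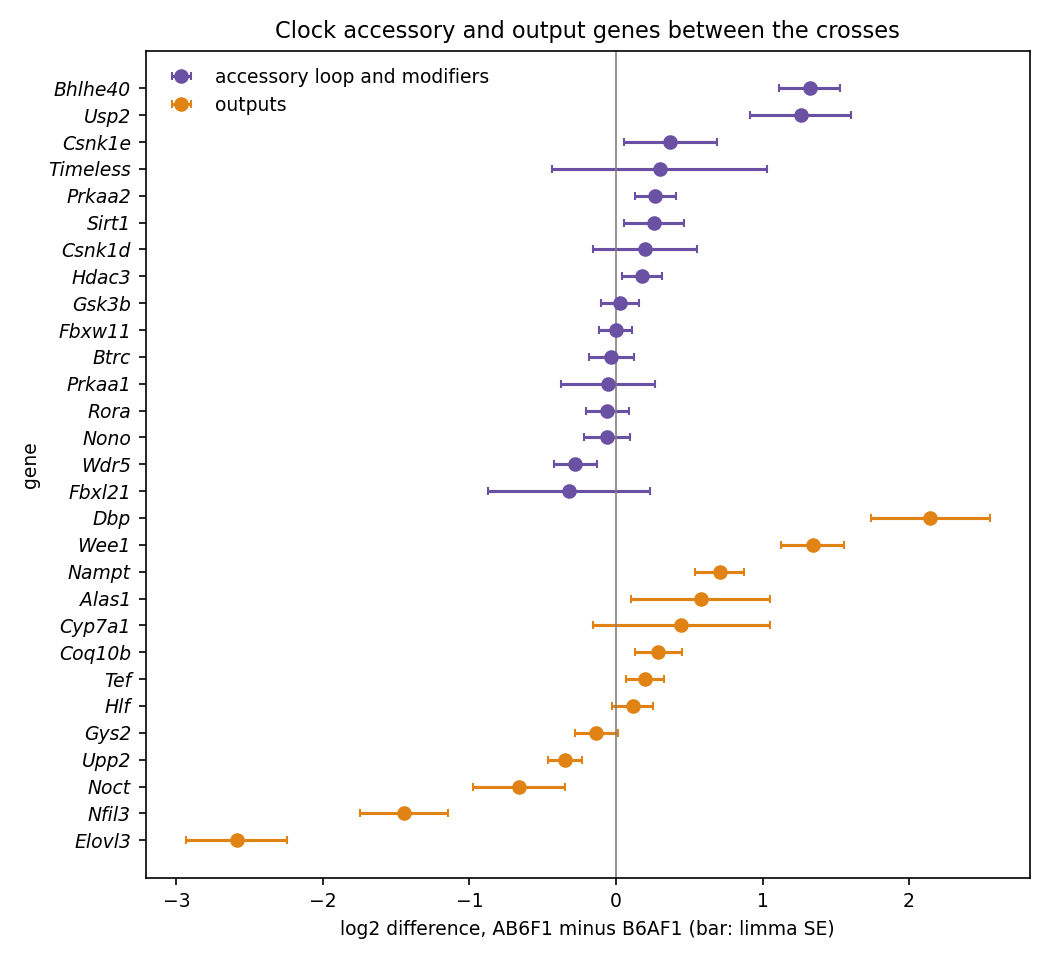
Log2 difference, AB6F1 minus B6AF1, of the 29 tested accessory (upper block) and output (lower block) genes. Points are limma estimates from 2 arrays per cross and bars are ± 1 SE. Dbp, Wee1, Bhlhe40 and Usp2 lie furthest to the right, and Elovl3 and Nfil3 furthest to the left.

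Genes that report other daily cues to the liver were set beside the clock. Of 11 tested genes known to respond to glucocorticoids, 6 were positive and 5 negative, with a median log2 difference of 0.16. Limma called 0 of them, and 3 were higher and 0 lower at an unadjusted p under 0.05. The smallest p values were those of the metallothionein Mt2, at 2.75 ± 0.71, and the kinase Sgk1, at 0.45 ± 0.16. Mt2 varied widely within each cross, with signals of 5413 and 1632 in AB6F1, against 227.5 and 863 in B6AF1. Of 10 tested fasting and feeding genes, 0 were called and 1 was lower at an unadjusted p under 0.05, with a median of -0.03. Angptl4, a lipoprotein lipase inhibitor, was at -0.74 ± 0.23, and Fasn, the fatty acid synthase, at 0.71 ± 0.31. Of 7 tested genes that respond to body temperature, 0 were called and 1 was higher at an unadjusted p under 0.05. The median was 0.13, and the chaperones Hspa8 and Hsp90aa1 were at 0.64 ± 0.19 and 0.31 ± 0.14. In all, 6 of the 7 were positive, and Cirbp, the only negative one, was at -0.72 ± 0.33 without overlap. At an unadjusted p under 0.05, 5.84% of all genes tested were higher and 3.88% lower. Limma adjusted p of the genes named here ran from 0.309 to 0.545.

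Genes with the pattern most like that of Arntl, Nr1d1 and Per2 were sought among the other 11747 tested genes by the root-mean-square difference of log2 signals, each centred on its mean over the 4 arrays. The 5 nearest to Arntl were Gpr61, Gm33301, Krtcap3, Tbc1d4 and Slc22a17, at 0.0284 to 0.0578, so that each was lower on both AB6F1 arrays. These 5 were dimmer than Arntl, with signals from 43.5 (Gm33301, AB6F1 replicate 1) to 172.8 (Krtcap3, B6AF1 replicate 1). The 5 nearest to Nr1d1 were Rpap1, Rims2, Nfat5, Spock2 and Spry2, at 0.0220 to 0.0719, and the 5 nearest to Per2 were Mcm5, Timp3, Zfp1, Nav1 and Nt5e, at 0.0286 to 0.0548. None of them was a clock gene of the lists used here. With 4 arrays the likeness is a description only.

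Each array had a trimmed mean signal of 500.0, and log2 signals of all probe sets correlated between arrays at 0.895 to 0.901, about as closely between the crosses as within them. The 8 tested hepatocyte markers had a median log2 difference of -0.08, with albumin (Alb) at -0.16 ± 0.13, and the probe set of apolipoprotein Apoa1 was the brightest of each array. Markers of other liver cells were read from lists. Each of the 10 macrophage markers tested had a positive difference and 0 passed limma, with summed signals of the 11 measured markers of 17348 and 10913 in AB6F1, against 7212 and 10078 in B6AF1. Of 10 stellate cell markers 9 had positive differences and 2, Col3a1 and Col1a2, passed limma. Their summed signals were 14712 and 17761 in AB6F1, against 11264 and 10616 in B6AF1. In each of these 2 lists, 7 genes were higher and 0 lower at an unadjusted p under 0.05. Over all genes tested, 5.84% were higher and 3.88% lower at that p. Of all 11748 genes, 6284 were positive and 0.213% passed limma. Endothelial markers (7 tested, median 0.13), lymphocyte markers (4 tested, median -0.15) and cholangiocyte markers (3 tested, median 0.42) held 0 genes past limma. The part of these cells in the values of the clock genes was not tested.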

How the data were processed

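Liver RNA of 2 AB6F1 and 2 B6AF1 males was measured, 1 array per mouse. The authors deposited 1 intensity per probe set on a linear scale, computed with MAS5 (version not given) per the submitters' processing notes. The values show that all arrays were scaled to an equal mean, trimmed by 2% at either end, which hides any change common to all transcripts. MAS5 ratios of dim probe sets are noisy, and neither scanner files nor detection calls were used here.

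The annotation gave 1 symbol to 34945 probe sets, several to 932 and none to 9160, beside 64 controls. Of the 34945, 34741 matched the RefSeq table of GRCm38.p6 by gene identifier and took its symbol, whether or not that differed. The brightest probe set by mean log2 signal stood for a gene. Genes with a mean signal under 60.9 were left out, which kept 11748. The crosses were compared on log2 signal (no pseudocount) through limma (version 3.58.1, R 4.3.3), using lmFit and then eBayes with its variance following intensity (4.96 prior and 2 residual degrees of freedom), two-sided, adjusted by Benjamini-Hochberg over all genes, with a threshold of 0.05. SE are moderated standard errors and folds are powers of the log2 difference. The number of arrays limits the precision. The labels call the mice biological replicates. The fit was tested on simulated data with planted differences far larger than those of the members. Its power at the sizes of the member differences was not examined.

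The members and lists were chosen with earlier results of these data known. Genes named beside the members followed a rule: Dbp, Tef, Hlf, Nfil3, Ciart, Bhlhe40, Bhlhe41, Rora and a gene not reported here, the 6 genes of smallest p per clock list, 2 per list of other cues, and Alb. Cirbp, Col3a1 and Col1a2 were named after their values were seen. List members without a probe set of their own symbol are not analysed here. The 17 alternatives changed scaling, pseudocount, filter, choice of probe set, variance model, threshold, the replicate block and the arrays included.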

Additional observations from a re-analysis of the deposited data

How the results depend on the processing

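No core clock gene tested passed limma in any of the 17 alternatives run. Npas2, Per3 and Per2 lay below the filter, and so were not tested, when all probe sets were averaged or the 75th percentile was the filter, which left 6 members. Across the alternatives the smallest adjusted p of a member was 0.0948, for Cry1 without AB6F1 replicate 2. At an unadjusted p under 0.05 the alternatives gave between 0 and 4 members. Of 148 member differences recomputed, 139 kept their direction and 9 reversed. Many of the 148 could not reverse. A changed filter, variance model or threshold, the replicate block, and probe sets tested separately left each estimate as it was. So did leaving out probe sets with names ending in _x_at or _s_at, none of which stood for a member. For a gene with a single probe set, the mean of its probe sets was fixed as well. Arntl was at 0.0698 and Clock at 0.0983 with the mean of all probe sets. Npas2 was at 0.17 without AB6F1 replicate 2 and 0.13 without B6AF1 replicate 1. Nr1d1 was at -0.0516 after median centring, -0.19 without AB6F1 replicate 2 and -0.30 without B6AF1 replicate 1, and Cry2 at 0.00118 without AB6F1 replicate 1 and 0.0176 without B6AF1 replicate 2. With an array left out, Npas2 ran between -0.67 and 0.17, Nr1d1 between -0.30 and 0.47, and Cry2 between -0.14 and 0.0176. The cause of these reversals was not tested, beyond the dim probe sets that the mean adds. Nr1d2 and Cry1 kept their direction in all 17 alternatives, and Per3 and Per2 in the 15 that tested them. Only another scaling, the pseudocount or an array left out could have reversed these genes. For Nr1d2 the mean of its probe sets could have done so too. Nr1d2, Per3, Per2 and Cry1 had log2 differences of 0.12 to 0.49, 0.60 to 1.03, 0.32 to 0.94 and -0.98 to -0.14, and with an array left out Arntl ran between -0.82 and -0.38. Median centring moved the median of all tested genes to -0.11, against 0.02 as scaled by the authors.

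Over all genes limma called 25, against 50 after median centring (28 higher and 22 lower, in place of 16 and 9), 9 with the mean of all probe sets, 0 without the intensity trend (1044 at an unadjusted p under 0.05), 46 at a threshold of 0.1, 62 with the replicate block, and 1 to 241 with an array left out. Of the accessory and output genes 0 were called, against 2 after median centring, 2 at a threshold of 0.1, 3 with the replicate block (Bhlhe40, Elovl3 and Nfil3), and 0 to 5 with an array left out. The replicate numbers do not pair the mice: deviations from the cross means of mice with the same number correlated at -0.03 over genes. The block called 0 members. With an array left out, the lone mouse of its cross was assumed to vary like the others. No detection calls limit what can be said of dim probe sets such as that of Per1.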
